A study of Capsella grandiflora and Capsella rubella with 18 samples.

Results

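The genes described here are the 100 most abundant leaf transcripts that were also detected at a lower level in flower buds, out of 19350 gene rows in the series. They were chosen by their levels: a row qualified when its mean over the 8 bud libraries lay above 1/50 and below 1/4 of its mean over the 10 leaf libraries (2346 rows), and the 100 with the highest leaf mean were kept. Messenger RNA with poly(A) tails was sequenced as paired-end libraries from mixed-stage flower buds of 4 Capsella rubella plants, which are self-compatible, from mixed-stage flower buds of 4 plants of its outcrossing relative Capsella grandiflora, and from maturing leaves of 10 C. grandiflora plants. All plants were raised under standardised greenhouse conditions. The C. rubella plants came from 4 places in Greece and Italy, and 1 of them had been inbred in the greenhouse. Of the C. grandiflora plants, 3 bud and 9 leaf plants were raised from seed collected in the wild, and the remaining bud and leaf plants were each the F1 of a cross between plants from Corfu. Leaves of C. rubella were not analysed here, and no plant gave both a bud and a leaf library.

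Leaves are the main photosynthetic organ of a crucifer, and their nuclear messenger RNA is commonly dominated by a small number of transcripts for the light reactions, carbon fixation and photorespiration. Young flower buds carry green sepals around floral organs that hold less chlorophyll, and so usually contain the same transcripts at lower levels. The deposited table lists gene IDs without names or products, so no function is given to any of the 100 genes, and marker genes of leaf or floral cell types could not be looked up. Each gene is given by its ID and its position in the CR v1 JGI assembly. No sequence of these genes was used here.

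Expression was given as FPKM, which scales the fragments of a transcript to its length and to the size of its library, and library depth is unknown. The FPKM values of a library summed to 576725 to 625873 in C. rubella buds, 589667 to 657140 in C. grandiflora buds and 1307609 to 1858148 in leaf. Bud values are rounded to 2 decimals and leaf values are not, so the tissues and the handling of their columns cannot be told apart. In the columns of Cr_bud 1 and Cg_bud 1 the value 0.5 stands where other columns hold 0, which touches none of the 100 genes directly: their lowest value in any bud library was 3.86 FPKM. The p-values below set the difference between the species' buds against the spread among the bud libraries of each species.

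The bud and leaf levels below are what chose the genes and are a description without a test. The 100 genes had bud means of 31.5 to 2360 FPKM (median 201) and leaf means of 1021 to 52925 FPKM (median 1989). The bud mean was 2.0% to 23.3% of the leaf mean, with a median of 6.65%. The genes divided almost evenly over this range, with 33 genes at 2% to 5% of leaf, 33 at 5% to 10% and 34 at 10% to 25%. No value of the 100 genes was listed at 0 in any of the 18 libraries. For 4 genes the lowest leaf library did not exceed the highest bud library, and for the other 96 the bud and leaf libraries were apart.

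**Figure D1:**
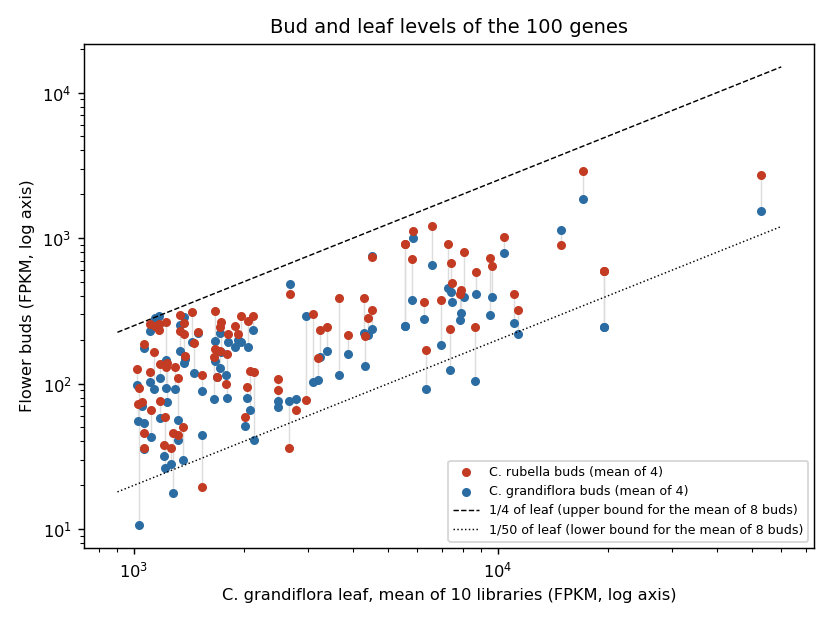
Mean FPKM in C. rubella buds (red) and C. grandiflora buds (blue) against mean FPKM in leaf for the 100 genes, both axes logarithmic; a grey line joins the species' means of a gene, and the broken lines mark the bounds of the rule for the mean of all 8 bud libraries. The red point lies above the blue one for 87 of the 100 genes; single species means can fall outside the bounds.

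The last genes inside the rank limit were Carubv10016323m and Carubv10002113m, with leaf means of 1026 and 1021 FPKM. The first outside it, Carubv10009236m and Carubv10014797m, had leaf means of 1009 and 1009 FPKM, so the limit falls in a continuous range. At the lower ratio bound, Carubv10012481m stood just inside at 2.0% of leaf, with a bud mean of 173 FPKM and a leaf mean of 8665 FPKM, and Carubv10017894m just outside at 1.98%, with a bud mean of 188 FPKM and a leaf mean of 9476 FPKM. At the upper bound, Carubv10006179m stood at 23.3% of leaf and Carubv10027387m, outside, at 27.2%. Among the 167 rows with a leaf mean at least as high as that of the last gene chosen, 49 were at or below the lower bound and 18 at or above the upper one. Bud and leaf sums differ, and when all libraries were first scaled to the same sum, 66 of the 100 genes were chosen again. With medians in place of means, 91 were.

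Together the 100 genes made up 5.69% ± 0.323 of the FPKM sum in C. rubella buds (SD, n = 4), 3.72% ± 0.157 in C. grandiflora buds (SD, n = 4) and 28.4% ± 4.59 in leaf (SD, n = 10). The single most abundant gene, Carubv10021016m (scaffold 2, 8345296 to 8347074), accounted for 0.377% to 0.540% of the sum in C. rubella buds, 0.202% to 0.275% in C. grandiflora buds and 1.91% to 6.92% in leaf. It measured 2339, 2277, 3030 and 3114 FPKM in the C. rubella buds and 1653, 1567, 1621 and 1280 FPKM in the C. grandiflora buds. In leaf it ranged from 32004 FPKM (Cg_leaf 8) to 101201 FPKM (Cg_leaf 1), with a median of 49815. Every C. rubella bud library thus lay above every C. grandiflora one, and every leaf library above both.

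Carubv10002373m (scaffold 6, 438681 to 442881), 4th of the 100 in leaf, had the highest bud mean of them, 2360 FPKM. It measured 3347, 2620, 2724 and 2825 FPKM in C. rubella buds and 2588, 1630, 1626 and 1517 FPKM in C. grandiflora buds. Leaf libraries held 10265 to 21110 FPKM, with a median of 17155. A second row has the same coordinates, and Carubv10002373m held 99.9% of the leaf level of the pair. Carubv10021201m (scaffold 2, 5144803 to 5146081) had the opposite order of the species' means: 1105, 766, 773 and 914 FPKM in C. rubella buds against 1380, 1058, 1047 and 1083 FPKM in C. grandiflora buds, with overlapping libraries. Its difference was not called, and its leaf values ran from 8783 to 29290 FPKM (median 12958).

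The rule did not compare the species' buds with each other, and that comparison asks which genes differ between the buds of these species. Their mating systems cannot be told apart from species and origin in it. The rule did use the mean over both species, so a gene could pass the lower bound through the species in which it was high. Most of the 100 genes were more abundant in C. rubella buds. Of the 100, 57 were higher in C. rubella at an adjusted p below 0.05 (limma on log2(FPKM + 1), Benjamini-Hochberg adjustment over 16923 tested genes), where 11.9% of all tested genes were. Only 2 of the 100 were lower, where 12% of all tested genes were, and 41 were not called. Taken in either direction, 59 of the 100 were called, beside 23.9% of all tested genes. All 100 passed the filter on low values. The C. grandiflora bud mean alone was at or below 1/50 of the leaf mean for 9 of the 100, all of which were called higher. The C. rubella bud mean alone was so for 2, of which 1 was called lower. These genes had to differ to be included. Among the 89 genes for which each species' bud mean lay inside the bounds, 48 were called higher and 1 lower, with a median difference of 0.47. With the C. grandiflora mean in place of the mean of all buds in the rule, 52 of 100 genes were called higher and 2 lower, with a median of 0.44. The median difference over the 100 genes was 0.50 on the log2 scale, a ratio of 1.41, beside 0.01 over all tested genes, and the quartiles were 0.22 and 0.83. The difference was above 0 in 87 of the 100 genes, where 51.1% of all tested genes had it. Levels are per mass of RNA of a whole bud, so more cells of a type and more RNA per cell cannot be told apart, and the labels do not give the mix of bud stages.

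**Figure D2:**
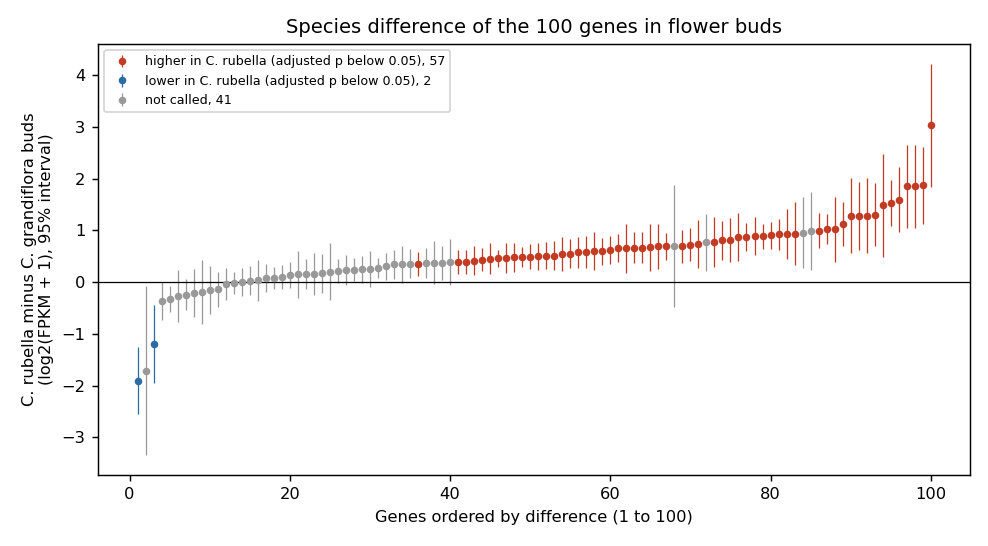
Difference between C. rubella and C. grandiflora buds for each of the 100 genes, on the log2(FPKM + 1) scale with its 95% interval from limma, in order of size; red genes were called higher in C. rubella (57), blue ones lower (2) and grey ones were not called (41). Differences run from -1.90 to 3.03, and 87 points lie above the zero line.

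The differences were broad and mostly below 2-fold. Among the 57 genes called higher the ratio of C. rubella to C. grandiflora on this scale ran from 1.28 to 8.17, with a median of 1.62. At least 2-fold differences were called for 14 genes that were higher in C. rubella, where 2.4% of all tested genes were, and for 2 that were lower, where 4.15% were. The 14 include all 4 rows on scaffold 26, described below. All 4 C. rubella libraries lay above all 4 C. grandiflora libraries for 54 genes, where 14% of all tested genes did. All lay below for 1 gene, where 14.1% did. These counts include genes that had to differ to be included. Among the 89 genes with each species' mean inside the bounds, 8 were at least 2-fold higher and 1 lower. The libraries of these 89 lay all above for 46 and all below for 1, and their largest log2 difference was 1.87. The 41 genes not called included 30 with a difference above 0 and 11 with one below 0, from -1.71 to 0.98.

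The same was visible in each library. The median deviation of the 100 genes from their mean over the 8 bud libraries was 0.17, 0.28, 0.31 and 0.22 in the C. rubella buds and -0.33, -0.25, -0.25 and -0.20 in the C. grandiflora buds, on the log2 scale. Over all tested genes it lay between -0.01 and 0.02 in every bud library. The share of the FPKM sum held by the 100 genes was 5.25%, 5.98%, 5.87% and 5.66% in the C. rubella buds and 3.65%, 3.58%, 3.94% and 3.72% in the C. grandiflora buds, without overlap. Leaving out Carubv10021016m, the share was 4.87% to 5.61% in C. rubella buds and 3.33% to 3.67% in C. grandiflora buds, so that the top gene alone did not set it. The deviations and shares cover all 100 genes, with those that had to differ to be included. They are thus partly fixed by the rule, and were not computed for the 89 genes with each species' mean inside the bounds.

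**Figure D3:**
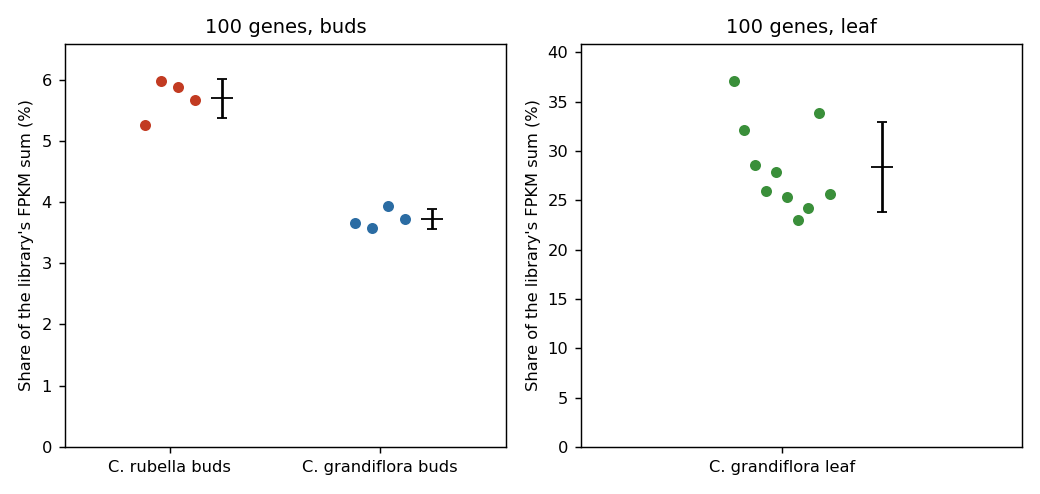
Share of each library's FPKM sum held by the 100 genes, in C. rubella and C. grandiflora buds (left panel) and C. grandiflora leaf (right panel, other scale); points are libraries and bars the mean ± SD. The 4 C. rubella buds lie between 5.25% and 5.98%, above the 4 C. grandiflora buds at 3.58% to 3.94%, and the 10 leaf libraries between 22.96% and 37.1%.

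Among all 100 genes, Carubv10005988m (scaffold 7, 17181930 to 17182908) had the largest difference in favour of C. rubella. It passed the lower bound only through C. rubella, where its bud mean was 8.94% of the leaf mean, against 1.03% in C. grandiflora, so its difference is partly fixed by the rule. It measured 100, 146, 34.4 and 89.0 FPKM in C. rubella buds and 8.44, 3.86, 9.92 and 20.3 FPKM in C. grandiflora buds. In leaf it ranged from 201 to 3785 FPKM, with a median of 595. The lowest C. rubella bud stood above the highest C. grandiflora bud, and the log2 difference came to 3.03, with an SE of 0.523 (limma, adjusted p = 0.00626). Carubv10024394m (scaffold 4, 13263505 to 13264689) followed, with 484, 352, 375 and 335 FPKM in C. rubella buds against 80.8, 62.6, 202 and 112 FPKM in C. grandiflora buds. Its difference was 1.87 (SE 0.327, limma adjusted p = 0.00649), again without overlap. Each species' mean lay inside the bounds, at 10.6% of leaf in C. rubella and 3.13% in C. grandiflora. Its leaf values ran from 618 to 21383 FPKM, with a median of 1430. Its call was lost when the leaf libraries were added to the fit (limma adjusted p = 0.194). The other 3 genes given here with a p-value for their call kept it.

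The genes called lower were Carubv10005223m and Carubv10010620m. Carubv10005223m (scaffold 7, 7263557 to 7266038) measured 104, 49.5, 61.7 and 95.7 FPKM in C. rubella buds and 256, 332, 381 and 191 FPKM in C. grandiflora buds, with no overlap. The difference was -1.90 (SE 0.287, limma adjusted p = 0.00396), and leaf values ran from 1113 to 5384 FPKM with a median of 2916. Carubv10010620m (scaffold 1, 9725989 to 9727522) measured 33.6, 11.95, 14.6 and 17.99 FPKM in C. rubella buds and 44.2, 33.8, 67.8 and 32.5 FPKM in C. grandiflora buds. These libraries overlapped, since Cr_bud 1 stood above Cg_bud 4. It passed the lower bound only through C. grandiflora, with a bud mean of 1.27% of leaf in C. rubella and 2.90% in C. grandiflora, so its direction is partly fixed by the rule too. The difference was -1.19 (SE 0.333, limma adjusted p = 0.0338), and it passed the threshold in only 2 of the 8 fits that leave out 1 bud library. In leaf this gene held 721 to 2181 FPKM, with a median of 1662.

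Most of the genes highest in leaf were called. Of the 10 genes with the highest leaf mean, 8 were called higher in C. rubella buds and 2 were not called. Over all tested genes, 11.9% were called higher. Carubv10012760m, Carubv10012759m and Carubv10020781m, among the 8, passed the lower bound only through C. rubella. Their C. grandiflora bud means were 1.24%, 1.25% and 1.93% of leaf. In order of the leaf mean, 20 of the first 25 genes, 15 of the next 25, 10 of the next and 12 of the last were called higher, with median differences of 0.70, 0.50, 0.34 and 0.37. Across the 98 genes with leaf profiles of their own, Spearman's rho of the difference with the leaf mean was 0.31, as a description. The first 25 also include Carubv10012481m, Carubv10010631m and Carubv10010058m, which passed the lower bound only through C. rubella as well. The order of these counts and the rho are therefore partly fixed by the rule. The called genes were spread over the genome: 42.9% (scaffold 8) to 62.5% (scaffold 5) of the genes on each of the 8 large scaffolds were called higher.

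Less abundant genes in the same window of the ratio of bud to leaf were set beside the 100. Of their 2246 rows, 1803 were tested, and 362 (20.1%) were higher and 85 (4.71%) lower in C. rubella buds, with a median difference of 0.14. Of the 100 most abundant leaf rows at or below the lower ratio bound, 86 were tested, and 22 were higher and 5 lower, with a median of 0.44. The difference between these sets was not tested, and more of their rows failed the filter on low values. The median SD of the 100 genes over 4 bud libraries was 0.20 in C. rubella and 0.22 in C. grandiflora on the log2 scale, beside 0.17 and 0.20 over all tested genes.

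The number of calls depended on the libraries in the fit. When the 10 leaf libraries were added to the estimate of the spread, 10 of the 100 genes were called higher, where 2.8% of all tested genes were, and 2 were called lower, where 6.33% were. Among these 10, Carubv10005988m, Carubv10012481m and Carubv10021067m passed the lower bound only through C. rubella. Of the 2 lower, Carubv10010620m passed it only through C. grandiflora. These counts are thus partly fixed by the rule. With each bud library left out in turn, 40 to 53 genes were called higher, where 7.74% to 12.02% of all tested genes were. Of the 57, 36 were called in all 8 of these fits, and the matching share of all tested genes was not computed. The 36 include Carubv10005988m, Carubv10012481m, Carubv10010631m, Carubv10010058m, Carubv10020781m and Carubv10021067m, which passed the lower bound only through C. rubella. The counts from these fits are therefore partly fixed by the rule as well.

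In leaf, the 100 genes differed widely in how steady they were. The SD of log2(FPKM + 1) over the 10 leaf libraries ran from 0.17 to 2.58 with a median of 0.47, the same as the median of 0.47 over the 14823 rows that reached 1 FPKM in at least 4 leaf libraries. The highest leaf library held less than 2 times the lowest for 18 genes and at least 10 times the lowest for 11. The steadiest was Carubv10002591m (scaffold 6, 68906 to 69594), with 1031 to 1469 FPKM in leaf and a median of 1119. In buds it measured 259, 218, 217 and 234 FPKM in C. rubella and 322, 254, 270 and 315 FPKM in C. grandiflora, where the species overlapped and the difference was not called. Carubv10005561m, with leaf values of 2781 to 4220 FPKM, and Carubv10010421m, with 1300 to 2077 FPKM, came next.

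**Figure D4:**
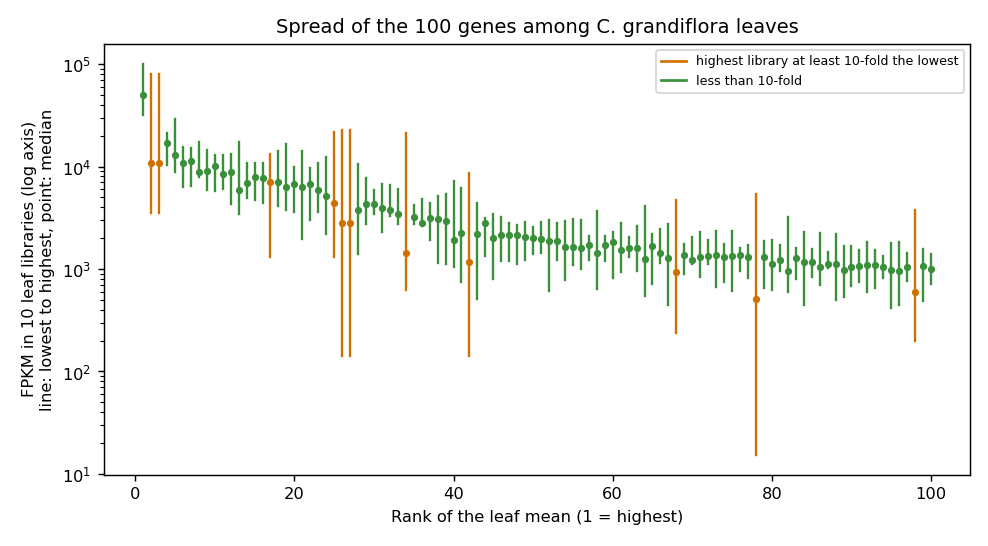
Lowest to highest FPKM (line) and median (point) over the 10 C. grandiflora leaf libraries for each of the 100 genes, ordered by leaf mean, on a logarithmic axis. The 11 genes in orange differed at least 10-fold between leaf libraries and lie between ranks 2 and 98. The widest, Carubv10024400m, runs from 15.2 to 5407 FPKM.

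The most variable was Carubv10024400m (scaffold 4, 13267616 to 13268424), with 15.2 FPKM in Cg_leaf 5 and 5407 FPKM in Cg_leaf 7 and a median of 512. It measured 55.2, 47.3, 25.9 and 53.3 FPKM in C. rubella buds and 8.27, 14.5, 37.1 and 10.7 FPKM in C. grandiflora buds. It passed the lower bound only through C. rubella, at 3.55% of leaf against 1.38% in C. grandiflora. Of the 11 genes that differed at least 10-fold between leaf libraries, 10 were called higher in C. rubella buds, with a median difference of 1.28. They include all 4 rows on scaffold 26 that are described below. Each species' mean lay inside the bounds for 6 of the 11, and these 6 were called higher. Over all tested genes, 11.9% were called higher. The 6 include Carubv10012757m and Carubv10012761m, with identical leaf values and nearly identical bud values (636 and 637 FPKM in Cr_bud 1). The 6 are thus not all separate measurements. Of the other 89 genes, 47 were called higher and 2 lower, with a median of 0.46. Over all 98 distinct leaf profiles the SD in leaf and the difference in buds were only weakly related (Spearman's rho 0.14, a description).

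No single leaf library was high for most genes. Cg_leaf 1 was the highest library for 22 of the 100 genes and Cg_leaf 9 for 17, and Cg_leaf 4 was the lowest for 31. The median deviation of the 100 genes was 0.26 in Cg_leaf 1 and -0.25 in Cg_leaf 4, where that of all rows at 1 FPKM in at least 4 leaf libraries was -0.28 and 0.07. The median deviations of the 100 genes and of all these rows thus had opposite signs in these libraries. The part of this in the spread of single genes was not tested.

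Some of the 100 genes lay next to each other, within 10 kb. On the small scaffold 26, which carries 5 rows, 4 were among the 100: an adjacent pair at 49047 to 50138 and another, 1.09 kb long as well, at 82673 to 83764. Carubv10012759m and Carubv10012760m had identical values in all 10 leaf libraries, and so did Carubv10012761m and Carubv10012757m. Thus 98 leaf profiles were distinct, and the assignment of reads within each pair is uncertain. Bud values were nearly identical too, as with 534 and 525 FPKM in Cr_bud 1 for Carubv10012759m and Carubv10012760m. Carubv10012760m measured 525, 906, 551 and 381 FPKM in C. rubella buds and 363, 157, 258 and 194 FPKM in C. grandiflora buds, without overlap. In leaf it ran from 3529 FPKM (Cg_leaf 10) to 79207 FPKM (Cg_leaf 9), with a median of 10945. It passed the lower bound only through C. rubella, at 3.02% of leaf against 1.24% in C. grandiflora. Its neighbour Carubv10012757m measured 636, 1435, 986 and 586 FPKM in C. rubella buds and 392, 162, 259 and 188 FPKM in C. grandiflora buds, and 142 FPKM (Cg_leaf 10) to 22727 FPKM (Cg_leaf 9) in leaf, with a median of 2840. The neighbours thus had the same highest and lowest library in leaf and the same highest libraries among the buds of each species.

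A stretch of 14.3 kb on scaffold 7 (17181930 to 17196193) held 4 of the 100 genes with no other row between them. From one end to the other these were Carubv10005988m, given above, Carubv10007166m, Carubv10007296m and Carubv10005847m. Carubv10007166m measured 685, 1043, 1164 and 740 FPKM in C. rubella buds against 329, 345, 450 and 701 FPKM in C. grandiflora buds. Carubv10007296m measured 458, 958, 1188 and 611 FPKM in C. rubella buds against 317, 520, 349 and 391 FPKM in C. grandiflora buds. The libraries of both genes overlapped between the species. Carubv10005847m measured 502, 1007, 613 and 789 FPKM in C. rubella buds against 237, 228, 280 and 434 FPKM in C. grandiflora buds, without overlap. Of the 4 genes, 3 were called higher in C. rubella buds, where 11.9% of all tested genes were. Among the 3, Carubv10005988m passed the lower bound only through C. rubella. Carubv10007166m was called in only 4 of the 8 fits that leave out 1 bud library. Over the 10 leaf libraries the last 3 genes varied together, with Pearson's r of 0.72 to 0.88 between them, whereas Carubv10005988m had r of -0.47 to 0.14 with them.

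A stretch of 9.76 kb on scaffold 4 (13258668 to 13268424) held 3 of the 100 genes and 2 other rows. Besides Carubv10024394m and Carubv10024400m it held Carubv10024623m, which measured 1294, 868, 1354 and 1323 FPKM in C. rubella buds and 618, 335, 1088 and 583 FPKM in C. grandiflora buds, with overlapping libraries, and 1958 to 14323 FPKM in leaf (median 6325). All 3 genes were highest among the C. grandiflora buds in Cg_bud 3. Of the 3, 2 were called higher in C. rubella, where 11.9% of all tested genes were. Among these 2, Carubv10024400m passed the lower bound only through C. rubella, so its difference is partly fixed by the rule. Its libraries overlapped, and it was called in only 2 of the 8 fits that leave out 1 bud library. Carubv10024394m and Carubv10024400m shared their highest leaf library, Cg_leaf 7, and their lowest, Cg_leaf 5, with an r of 0.72 over the 10 leaf libraries. The neighbouring genes were picked out after their values were seen.

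**Figure D5:**
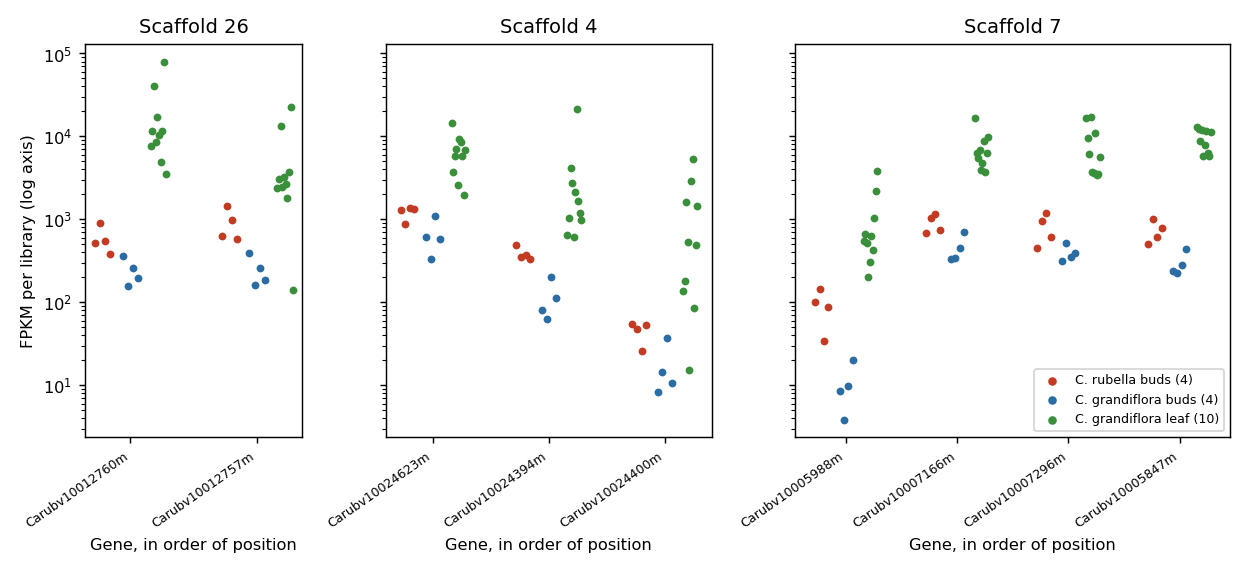
FPKM in every library (logarithmic axis) for the adjacent genes on scaffold 26 (one of its identical pairs), scaffold 4 and scaffold 7, with C. rubella buds in red, C. grandiflora buds in blue and C. grandiflora leaf in green. In each gene the red points lie higher than most blue ones, and the first gene on scaffold 7 has the widest gap, 34.4 to 146 FPKM against 3.86 to 20.3 FPKM.

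Of the 100 genes, 14 shared their coordinates with another row (14%, beside 12.9% of all rows), and none of those other rows was among the 100. The row among the 100 held 86.9% to 100% of the leaf level of each such pair. Of these 14 genes, 7 were called higher in C. rubella buds, where 11.9% of all tested genes were. Among the 7, Carubv10010058m passed the lower bound only through C. rubella, at 2.70% of leaf against 1.45% in C. grandiflora.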

How the data were processed

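Per the labels' protocols, poly(A) RNA was extracted with a Qiagen RNeasy plant kit and sequenced as paired-end Illumina libraries. The authors deposited 1 table of FPKM for 19350 rows and 18 libraries, whose positions refer to assembly CR v1 of JGI, per the file headers. Bowtie, TopHat and Cufflinks are named, without versions, per the submitters' processing notes. Aligner settings, the scaling of bud columns and library depths were not given in the sources used here, so the precision that depth gives is unknown. Columns were matched to libraries by name, and none was left over.

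The 100 genes were taken by the rule stated in the opening. The species fit used 4 C. rubella and 4 C. grandiflora bud libraries, log2(FPKM + 1) and genes with at least 1 FPKM in at least 4 of them. It was made with limma 3.58.1 in R 4.3.3 with a mean trend, over the whole table, with Benjamini-Hochberg adjustment and a threshold of 0.05, and tested on simulated data. Adding 1 makes folds of low genes too small. Other summaries used Python 3.11.15 with pandas 2.3.3 and scipy 1.17.1. Genes open to naming were the 10 highest in leaf, up to 6 called genes of largest difference per direction, the 3 most and 3 least variable in leaf and those beside the thresholds. Since IDs have no names, a direction was stated with its p-value for 2 increases and 2 decreases. Members and lists were chosen with earlier results of these data known, and the excess of leaf-abundant genes in C. rubella buds was already known from them. Product lists and promoter motifs were prepared but not used.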

Additional observations from a re-analysis of the deposited data

Results flagged for a closer look

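Values of 29 genes and 2 summaries of the 100 genes were screened in each of the 3 groups, 93 sets in all, for 1 library standing well apart. That held in 9 sets. The limits used are passed by about 1 in 20 independent sets of normally distributed values. Gene values were screened as FPKM without a log scale, and the sets were not all independent. The 9 are therefore not read as more than chance would give. In C. rubella buds, Carubv10024623m stood at 868 FPKM in Cr_bud 2, against 1294 or more in the others. In C. grandiflora buds, Cg_bud 1 stood apart for Carubv10002373m, at 2588 FPKM against 1630 or less, and for Carubv10021201m, at 1380 FPKM against 1083 or less. Without Cg_bud 1 the species difference of Carubv10002373m was 0.85, in place of 0.67. Among the leaves, Cg_leaf 1 stood apart for Carubv10021016m at 101201 FPKM against 62467 or less, for Carubv10021201m at 29290 against 17169 or less, and for Carubv10007166m at 16719 against 9713 or less. Cg_leaf 9 stood apart for Carubv10012760m and Carubv10012759m, which have the same leaf values, at 79207 FPKM against 41075 or less. Cg_leaf 7 stood apart for Carubv10024394m, at 21383 FPKM against 4169 or less, and its leaf mean was 3657 FPKM beside a leaf median of 1430.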

How the results depend on the processing

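Among the 100 genes, 57 were called higher, 2 lower, with a median difference of 0.50, and 4053 of all tested genes were called. With all 18 libraries in 1 fit these counts were 10, 2 and 1545. Without Cr_bud 1 and Cg_bud 1 together, 2343 genes of the whole table were called, and 38 of the 100 were called higher. Leaving out each bud library gave 40 to 53 higher, 1 to 3 lower, medians of 0.46 to 0.54 and 2824 to 4089 calls in all. Genes chosen by medians gave 1 lower call, and genes chosen after scaling all libraries to the same sum a median of 0.59. The cause of these changes was not tested, beyond the fewer libraries and other genes they use. Other pseudocounts (0.1 and 5), filters, scalings, weights and choices of the genes gave 48 to 62 higher calls, the lowest among the 89 genes with each species' mean inside the bounds, of which 1 was called lower. Scaling the bud columns to the same sum, leaving out 1 row of each identical pair and holding each species to the bounds were added after the data were seen. The share of all calls that were higher was 49.7% as reported, 55.4% with equal sums, 41.8% with upper quartile scaling and 30.6% with all 18 libraries. Of the 29 genes open to naming, none changed sign under the alternatives run. No paired analysis was possible because the labels give the C. rubella and C. grandiflora bud plants no shared replicate numbers; some C. grandiflora bud and leaf titles share a prefix, but no test compared those tissues. Depth is unknown, so the precision of low bud values cannot be stated.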

Other observations

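Genes of the 100 that varied together among the leaves of C. grandiflora were called to unequal extents in the species comparison of buds, which uses other libraries. The 98 distinct leaf profiles were grouped by average linkage on Pearson's r over the 10 leaf libraries, joined down to a mean r of 0.6, and 6 groups of 6 or more genes held 52 of them. The grouping and its limit were chosen after the data were seen, and no test was made. In the largest, of 16 genes with a median r of 0.74, 15 were called higher in C. rubella buds and all 16 had a difference above 0, where 11.9% of all tested genes were called higher. Of its 12 genes with each species' bud mean inside the bounds of the rule, 11 were called higher. Its median deviation in leaf was highest in Cg_leaf 1 (0.48), Cg_leaf 9 (0.40) and Cg_leaf 10 (0.38) and lowest in Cg_leaf 4 (-0.67). The second, of 9 genes that include Carubv10021016m and the last 3 genes of the stretch on scaffold 7, had 7 called higher. It was highest in Cg_leaf 4 (0.69) and Cg_leaf 1 (0.63) and lowest in Cg_leaf 5 (-0.76) and Cg_leaf 8 (-0.73), so that Cg_leaf 4 stood at opposite ends for the 2 largest groups.

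Other groups did not share this. A group of 8 genes that includes Carubv10002373m had 1 called higher and 1 lower, with a median difference of 0.02. It was highest in Cg_leaf 8 (0.69) and lowest in Cg_leaf 4 (-1.18). Its calls, 12.5% of its genes in each direction, were near the shares over all tested genes, 11.9% higher and 12% lower. A group of 7 genes, highest in Cg_leaf 8 (0.81) and lowest in Cg_leaf 2 (-0.71), had none called higher and 1 lower. Carubv10005223m and Carubv10010620m, the only genes of the 100 called lower, lay in these groups. The remaining groups of 6 had 3 and 4 called higher. With groups joined down to a mean r of 0.5, groups of 20, 16 and 15 genes had 14, 15 and 1 called higher, and both lower calls were in the third. With a limit of 0.7, the largest group of 11 genes had 11 called higher. Of these 11, Carubv10020781m and Carubv10010631m passed the lower bound only through C. rubella. The 16 are the genes of the largest group above, of which 12 had each species' bud mean inside the bounds. Carubv10010620m passed the lower bound only through C. grandiflora. The counts at each limit are therefore partly fixed by the rule. The points of each r are 10 libraries, which also differ in how all genes deviate (median -0.28 to 0.16), and the part of that in the groups was not tested.

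Pairs of the 100 genes were not in general alike in leaf: over 4753 pairs of distinct profiles the median r was 0.08, with 2.57% of pairs at 0.8 or above, beside 0.09 and 1.82% over pairs of the less abundant genes of the same window.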
